A study of Mus musculus with 12 samples.

Results

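Ccr9 and 6 other genes for T cell trafficking receptors, Ccr7, Ccr4, Cxcr4, S1pr1, Itgb7 and Itgae, were followed in BW5147, a T lymphoma line of mouse thymus. They were taken as every probe set that the array annotation gives to 1 of these symbols alone. This gave 9 probe sets for 7 genes, among 20380 probe sets and 12393 genes with a single symbol. Ccr9 had 3 probe sets (1427419_x_at, 1421920_a_at and 1421919_a_at) and each other gene had 1. Cells were treated for 8 h in 6 groups of 2 Affymetrix arrays each, named Dex+IL-9, IL-9, Dex+CCL-1, CCL-1, Dex and unstimulated. Dexamethasone (Dex, a synthetic glucocorticoid) was given at 100 ng/ml, and interleukin-9 (IL-9, a cytokine that T cells make) or the chemokine CCL-1, the ligand of the receptor Ccr8, at 100 U/ml. All groups were the same line, so they model 1 transformed line and not a normal thymocyte population.

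Chemokine receptors are seven-pass membrane proteins that couple to inhibitory G proteins and steer migration along gradients of their ligands. CCR9 binds CCL25, which is made in the thymus and the small intestine, and it marks developing thymocytes and T cells that home to the gut. CCR7 (ligands CCL19 and CCL21) leads cells to lymph nodes and the thymic medulla, CCR4 (CCL17 and CCL22) to skin and medulla, and CXCR4 (CXCL12) holds cells in bone marrow and the thymic cortex. S1PR1 senses sphingosine-1-phosphate and is needed for exit from the thymus. Integrin beta 7 pairs with alpha 4 to bind MAdCAM-1 of gut vessels, or with alpha E, encoded by Itgae, to bind E-cadherin of epithelium.

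Signals were deposited on the linear MAS5 scale. Differences are log2 differences of signal + 16, which understates folds of low signals, with their standard error (SE) and adjusted p-values from limma over 13575 probe sets. The threshold was an adjusted p of 0.05. The labels do not say whether the 2 arrays of a group came from separate cultures, so the spread behind the p-values may be technical only. The array CCL-1 2 was of another array type with its own table and was left out of the main fit, so CCL-1 without Dex had n = 1 there. It entered only the fits with CCL-1 2 added and with the arrays numbered 2 alone. In bulk RNA a lower signal from fewer expressing cells and from less RNA per cell cannot be told apart.

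Before the results, the arrays numbered 1 without Dex have to be described, since they went against their labels. The centred mean log2 level of 8 measured glucocorticoid receptor targets was 0.184 to 0.355 in the 6 Dex arrays. It was 0.21 in IL-9 1, 0.21 in CCL-1 1 and 0.414 in unstimulated 1, against -0.872 in IL-9 2, -0.784 in CCL-1 2 and -0.735 in unstimulated 2. Separately, the 2 Dex arrays differed most from each other. Their median absolute log2 difference was 0.258, against 0.168 to 0.213 in the other groups. Dex 2 stood apart for some genes, such as Ptprc, with 1510 against 2213 to 3222 in the other arrays. T cell markers were read in every array: 10 of 18 on the array were measured above the filter, with a summed signal of 5931 to 7717. Ptprc, Thy1, Lat and Cd3g were the highest. Cd4 had at most 2.22, and Cd8a, Cd8b1, Rag1, Ptcra, Cd2, Cd5 and Cd247 were also below the filter. Of B cell markers 0 of 5 passed the filter, with at most 8.22 in any array. The 4 myeloid and 2 stromal or epithelial markers that passed had mean signals of 7.4 to 13.6, against a filter at 6.32. The highest was the myeloid marker Csf1r, which reached 24.6 in IL-9 2.

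The rank of each probe set's mean log2 signal among all probe sets shows how far it was from the filter. Cxcr4 stood at the percentile 89.2, Ccr9 at 82.9 (1427419_x_at), 60.6 (1421920_a_at) and 53.3 (1421919_a_at), S1pr1 at 59.5, Ccr4 at 57.4 and Itgb7 at 50.1. Ccr7 at 37.0 and Itgae at 35.5 were below the filter, which kept probe sets above the 40th percentile, so 7 probe sets of 5 genes were tested. These ranks are not compared between genes, because each probe set has its own response.

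Ccr9, the receptor for CCL25, fell with IL-9. The probe set with the highest mean, 1427419_x_at, had signals of 76.1 and 84.0 in Dex+IL-9 cells and 57.7 and 84.6 in IL-9 cells. It had 308.5 and 212.8 in Dex cells and 262.3 and 253.3 in unstimulated cells. All 4 IL-9 arrays were therefore low and all 4 arrays without a cytokine were high, with no overlap. The IL-9 arrays averaged 75.6 ± 12.6 (SD, n = 4) and the arrays without a cytokine 259 ± 39.3 (SD, n = 4), a mean 3.43-fold lower with IL-9. The difference averaged over Dex conditions was -1.59 (SE 0.18, 95% interval -1.97 to -1.20, adjusted p = 0.00401).

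**Figure D1:**
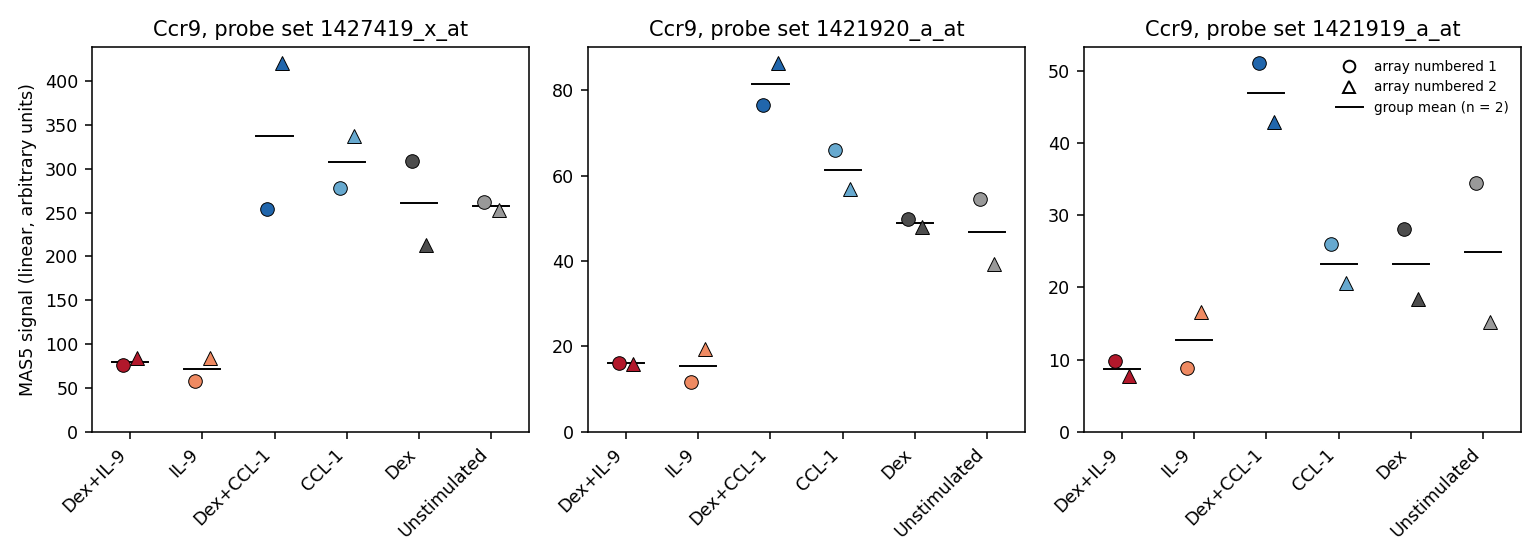
MAS5 signal of the 3 Ccr9 probe sets by group. Circles are arrays numbered 1, triangles arrays numbered 2 and lines the mean of the 2 arrays. By 1427419_x_at the 4 IL-9 arrays lie between 57.7 and 84.6, and the 8 other arrays at 212.8 or above.

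A second probe set gave the same order. Probe set 1421920_a_at had signals of 16.03 and 15.94 in Dex+IL-9 cells and 11.6 and 19.4 in IL-9 cells, against 49.9 and 48.0 in Dex cells and 54.5 and 39.3 in unstimulated cells. The groups again did not overlap. The difference averaged over Dex conditions was -1.01 (SE 0.14, adjusted p = 0.0211), with means of 15.7 ± 3.21 in the IL-9 arrays and 47.9 ± 6.36 in the arrays without a cytokine (SD, n = 4 each). The third probe set, 1421919_a_at, was dimmer, with 9.77 and 7.68 in Dex+IL-9 cells and 8.82 and 16.6 in IL-9 cells, against 28.1 and 18.3 in Dex cells and 34.4 and 15.3 in unstimulated cells. Here IL-9 2 lay above unstimulated 2, and the averaged difference of -0.57 (SE 0.18, adjusted p = 0.436) did not pass.

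These calls stand beside few others. IL-9 averaged over Dex conditions called 13 probe sets, 0.0958% of those tested, and 2 of the 7 member probe sets, both of Ccr9. Non-overlap is commoner: all 4 IL-9 arrays lay below all 4 unstimulated and Dex arrays in 3.78% of probe sets, and below all 8 other arrays in 0.648%. Among the tested members Ccr9 1427419_x_at, Ccr9 1421920_a_at and S1pr1 met the first condition, and the pair of Ccr9 probe sets met the second. The call of 1427419_x_at held without any 1 of the 11 arrays (adjusted p = 0.00119 to 0.0463) and was lost in the 6 arrays numbered 2 alone (-1.31, adjusted p = 0.151). The call of 1421920_a_at was lost with no signal filter (adjusted p = 0.0892), in the arrays numbered 2 alone (-0.82, adjusted p = 0.766) and without Dex+IL-9 1, Dex+IL-9 2, IL-9 1 or unstimulated 1 (adjusted p = 0.140 to 0.159). A probe set with the suffix _x_at can hold probes that also match other transcripts, and cross-hybridisation was not tested.

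The effect was then taken apart by Dex. In Dex-treated cells the Ccr9 difference of Dex+IL-9 against Dex was -1.51 (SE 0.25, adjusted p = 0.116), and in cells labelled without Dex that of IL-9 against unstimulated was -1.67 (SE 0.25, adjusted p = 0.0905), both by 1427419_x_at. Neither passed in these single comparisons of 2 arrays against 2, each of which called 3 probe sets, 0.0221% of those tested, none of them a member. At an unadjusted p under 0.05, 4 member probe sets were found in the first, of 774 in all, and 2 in the second, of 664 in all. The difference between the IL-9 effects with and without Dex was 0.16 (95% interval -0.61 to 0.93, adjusted p = 1), and this interaction called 0 probe sets (0%), 215 at an unadjusted p under 0.05. Within arrays of the same number, Ccr9 by 1427419_x_at was lower with IL-9 in 4 of 4 pairs. The lack of overlap given above already fixes this count, so it is no separate support. The log2 differences were -1.82 and -1.19 for Dex+IL-9 against Dex in arrays numbered 1 and 2, and -1.92 and -1.42 for IL-9 against unstimulated. The pair numbered 1 without Dex is the pair whose arrays both held glucocorticoid targets at the Dex level, and the pair numbered 2 is the one whose arrays did not.

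With CCL-1, no Ccr9 probe set passed the test. By 1427419_x_at, Ccr9 had signals of 254.5 and 420.4 in Dex+CCL-1 cells and 278.1 and 337.9 in CCL-1 cells, in the range of the arrays without a cytokine or above it. The difference for CCL-1 averaged over Dex conditions was 0.22 (95% interval -0.21 to 0.65, adjusted p = 0.934). It ran from 0.0463 without Dex+CCL-1 2 to 0.391 without Dex+CCL-1 1, and was 0.663 in the arrays numbered 2 alone and -0.0916 in those numbered 1 alone. By 1421920_a_at the signals were 76.5 and 86.3 in Dex+CCL-1 cells and 65.9 and 56.9 in CCL-1 cells, all 4 above the arrays without a cytokine, which 1.98% of probe sets showed. That difference was 0.49 (95% interval 0.13 to 0.84, adjusted p = 0.724) and did not pass. CCL-1 averaged over Dex conditions called 1 probe set (0.00737%), no member, with 2 member probe sets among the 760 at an unadjusted p under 0.05, 1421920_a_at and that of Cxcr4. Dex+CCL-1 against Dex also called 1 probe set (0.00737%), again no member, with 3 member probe sets among the 885 at an unadjusted p under 0.05. These were Ccr9 1421919_a_at (0.69) and 1421920_a_at (0.58), both higher, and Cxcr4 (-0.59), each at an adjusted p of 0.738. By 1421919_a_at the signals were 51.1 and 42.8 in Dex+CCL-1 cells and 26.0 and 20.6 in CCL-1 cells. Its difference averaged over Dex conditions was 0.39 (adjusted p = 0.907). CCL-1 against unstimulated and the interaction of CCL-1 with Dex called 0 (0%), 446 and 390 probe sets at an unadjusted p under 0.05, of the members that of Ccr4 in both.

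Set directly against CCL-1, IL-9 gave lower Ccr9. The IL-9 arrays averaged 75.6 ± 12.6 and the CCL-1 arrays 323 ± 74.0 by 1427419_x_at (SD, n = 4 each, CCL-1 2 included), a 4.27-fold lower mean with IL-9. The tested difference was -1.81 (SE 0.20, adjusted p = 0.00209). By 1421920_a_at it was -1.498 (SE 0.16, adjusted p = 0.00209), with means of 15.7 ± 3.21 in the IL-9 arrays and 71.4 ± 12.8 in the CCL-1 arrays. By 1421919_a_at it was -0.95 (SE 0.20, adjusted p = 0.134). This comparison called 32 probe sets (0.236%), and the other 4 tested receptors were not among them. The calls of 1427419_x_at and 1421920_a_at held without any 1 of the 10 arrays that could be left out (adjusted p at most 0.0180) and in every other setting in which the comparison was fitted (adjusted p at most 0.00950). The arrays of 1 number alone, in which the numbered 2 set lost both Ccr9 calls for IL-9, were not among those settings. Nor was the fit with Dex split by number. The size of the Ccr9 differences depends on the constant added before the log. With 1 in place of 16, and with 64, 1421920_a_at had -2.17 and -0.786 here and -1.56 and -0.488 for IL-9 averaged over Dex conditions, and 1427419_x_at had -1.998 and -1.397 here and -1.77 and -1.21 there.

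**Figure D2:**
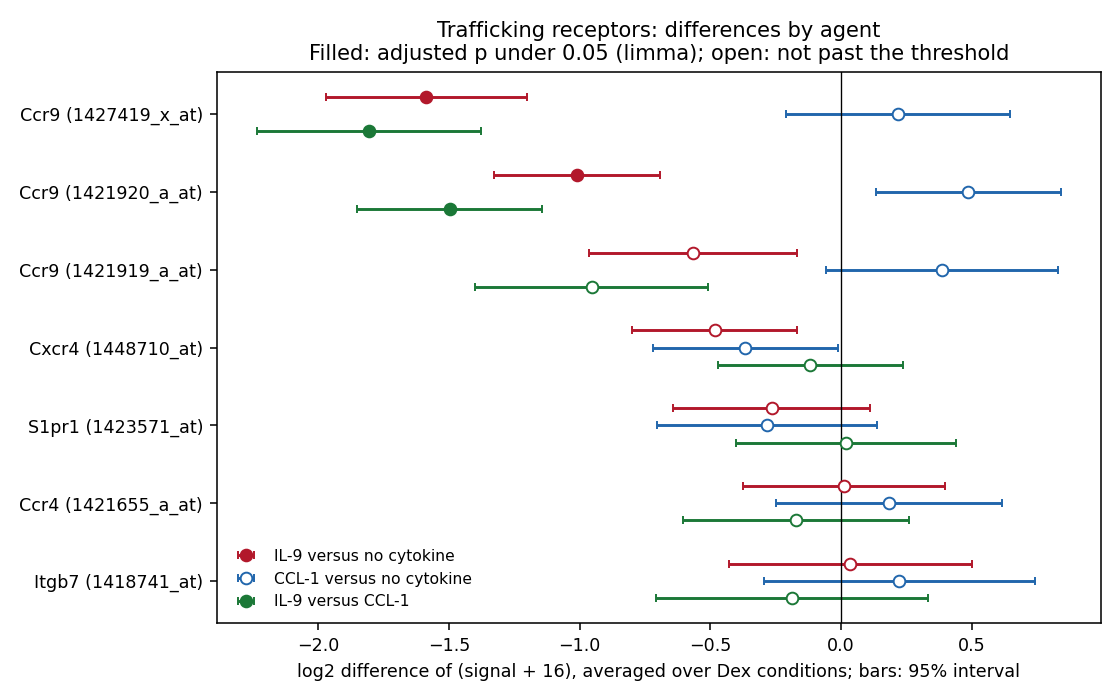
Log2 differences of signal + 16 for IL-9 against no cytokine, CCL-1 against no cytokine and IL-9 against CCL-1, averaged over Dex conditions, for the 7 tested probe sets. Bars are 95% intervals and filled points passed the threshold. Only the Ccr9 probe sets 1427419_x_at and 1421920_a_at have filled points, at -1.59 and -1.01 for IL-9 and -1.81 and -1.498 for IL-9 against CCL-1.

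The start of the Ccr9 gene is shown because Ccr9 is the member that passed a test, and E proteins, which bind E-box letters, are known regulators of Ccr9 in thymocytes. RefSeq places this window, 250 bases before to 50 after the gene start, on the plus strand of GRCm38.p6 at chr9:123766961-123767260. Capitals mark the matches to the E-box letters CANNTG, searched on both strands.
Ccr9 promoter window: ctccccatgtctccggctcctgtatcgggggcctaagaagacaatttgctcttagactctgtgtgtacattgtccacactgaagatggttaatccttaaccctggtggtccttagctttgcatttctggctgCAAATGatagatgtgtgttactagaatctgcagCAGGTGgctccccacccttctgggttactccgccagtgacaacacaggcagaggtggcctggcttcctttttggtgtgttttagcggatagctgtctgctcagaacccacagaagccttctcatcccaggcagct
The 2 matches were CAAATG and CAGGTG, 118 and 85 bases before the start. E-box letters are frequent, since 72.3% of 32851 such mouse windows held at least 1. The STAT letters TTCNNNGAA were found in 8.30% of windows and the glucocorticoid receptor letters GNACA and TGTNC, 3 bases apart, in 0.475%, and neither was in the Ccr9 window. Of the 7 genes 4 had an entry. The Ccr4 and Itgb7 windows also held 2 E-box matches each, the Cxcr4 window 0, and none of these held the STAT or glucocorticoid receptor letters.

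No receptor passed a test for Dex. Ccr9 by 1427419_x_at differed by 0.12 (95% interval -0.21 to 0.46, adjusted p = 1.00) for Dex averaged over the IL-9 and CCL-1 conditions, and by -0.0067 (95% interval -0.55 to 0.54) for Dex against unstimulated. These comparisons called 0 probe sets (0%), with 208 and 400 at an unadjusted p under 0.05 and no member among them. Because arrays numbered 1 without Dex held glucocorticoid targets at the Dex level, Dex was also estimated within each number. In arrays numbered 2 it called 81 probe sets (0.597%), 6 of the 8 glucocorticoid targets among them, and no member at an adjusted or unadjusted p under 0.05. Ccr9 differed there by 0.031 (95% interval -0.43 to 0.49, adjusted p = 0.974). In arrays numbered 1, where 0 probe sets (0%) were called and 339 had an unadjusted p under 0.05, it differed by 0.14 (95% interval -0.26 to 0.54).

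The arrays without Dex were also compared by number. Arrays numbered 1 against 2 without Dex differed in 108 probe sets (0.796%), and the Dex effect differed between the numbers in 28 (0.206%). No member was called in either. Ccr9 by 1427419_x_at differed by -0.21 (95% interval -0.67 to 0.25) between arrays numbered 1 and 2 without Dex. Cxcr4 had the only member difference with an unadjusted p under 0.05 here, 0.37 (95% interval 0.011 to 0.73, adjusted p = 0.524).

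**Figure D3:**
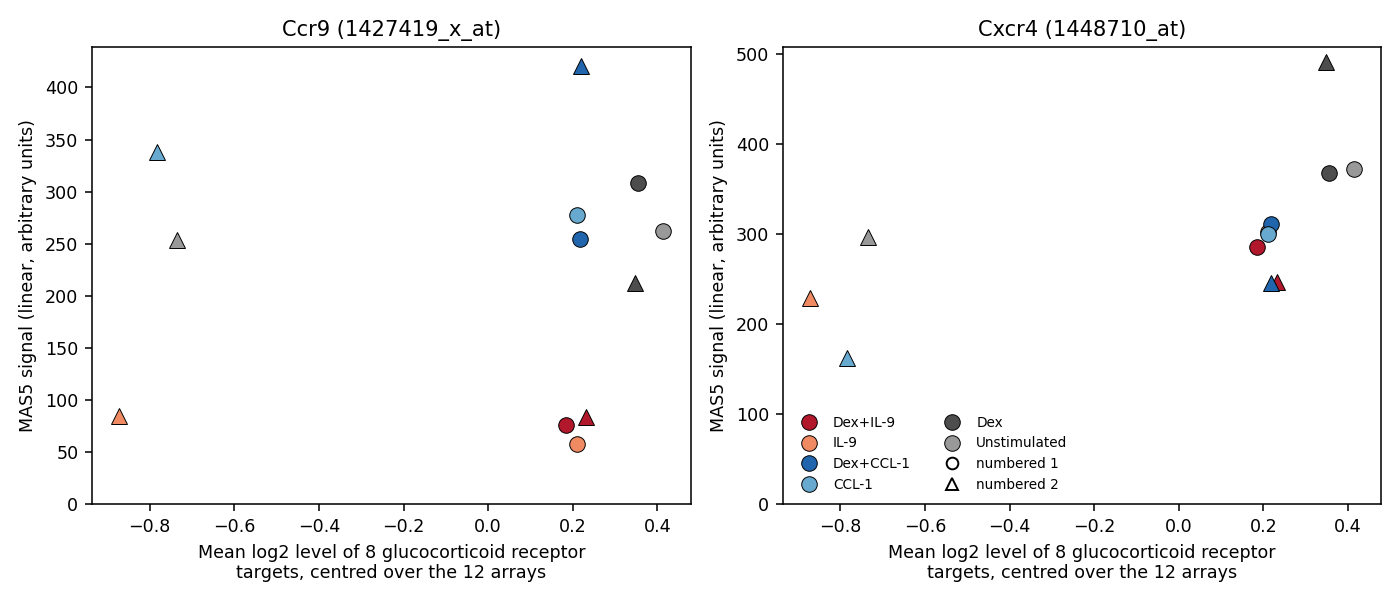
Signal of Ccr9 (1427419_x_at) and Cxcr4 by array against the centred mean log2 level of 8 glucocorticoid receptor targets. Colours are groups, circles arrays numbered 1 and triangles arrays numbered 2. IL-9 2, at a target level of -0.872, and IL-9 1, at 0.21, both have Ccr9 signals under 85, and unstimulated 2 at -0.735 and unstimulated 1 at 0.414 both have signals above 250.

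Cxcr4, the receptor for CXCL12, was not called in any comparison. It had signals of 286.2 and 247.4 in Dex+IL-9 cells and 302.0 and 229.3 in IL-9 cells, 311.4 and 245.6 in Dex+CCL-1 cells and 300.5 and 162.0 in CCL-1 cells. It had 367.8 and 491.1 in Dex cells and 372.8 and 297.3 in unstimulated cells. The cytokine arrays overlapped the others through unstimulated 2, and Dex 2 held the highest signal of the 12 arrays. Cxcr4 differed by -0.48 (95% interval -0.80 to -0.17, adjusted p = 0.371) for IL-9 and by -0.37 (95% interval -0.72 to -0.013, adjusted p = 0.879) for CCL-1, both averaged over Dex conditions and against the same control arrays. IL-9 against CCL-1 differed by -0.12 (95% interval -0.47 to 0.24). The comparison of Dex+IL-9 with Dex, -0.65 (adjusted p = 0.838), was called without Dex 1 (-0.85, adjusted p = 0.0472), which leaves Dex 2 as the only Dex array.

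Ccr4, the receptor for CCL17 and CCL22, had signals of 35.9 and 22.7 in Dex+IL-9 cells, 33.6 and 27.4 in IL-9 cells, 34.1 and 15.7 in Dex+CCL-1 cells and 50.3 and 30.2 in CCL-1 cells. It had 38.6 and 29.2 in Dex cells and 26.7 and 23.8 in unstimulated cells. In each group the array numbered 1 was the higher, and the share of probe sets that do so was not counted. Arrays numbered 1 against 2 without Dex differed by 0.32 (95% interval -0.16 to 0.80, adjusted p = 0.748), which did not pass. Both arrays of the IL-9, CCL-1 and Dex groups lay above both unstimulated arrays, which 2.54% of probe sets showed, and the other groups that were compared overlapped. CCL-1 against unstimulated differed by 0.69 (adjusted p = 1.00, n = 1 for CCL-1), and Dex+CCL-1 against Dex by -0.32 (adjusted p = 0.807). The difference between these, -1.01 (95% interval -1.87 to -0.14, adjusted p = 0.997), did not pass. For IL-9 averaged over Dex conditions Ccr4 differed by 0.011 (95% interval -0.38 to 0.40).

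Ccr7 was dim throughout, below the filter, and not in the main fit. Its signals were 6.83 and 5.46 in Dex+IL-9 cells, 4.83 and 1.72 in IL-9 cells, 6.41 and 9.50 in Dex+CCL-1 cells and 7.43 and 0.529 in CCL-1 cells. It had 1.17 and 12.04 in Dex cells and 1.25 and 3.03 in unstimulated cells, so the 2 arrays of the Dex group and those of the CCL-1 group each spanned more than the difference between those groups' means. The filter corresponded to a signal of 6.32. In the fit with no filter Ccr7 differed by 0.049 (adjusted p = 0.978) for IL-9 averaged over Dex conditions and was called in no comparison fitted there.

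S1pr1, the receptor for exit along sphingosine-1-phosphate, had signals of 31.0 and 27.3 in Dex+IL-9 cells and 35.9 and 34.3 in IL-9 cells, 51.1 and 24.4 in Dex+CCL-1 cells and 27.1 and 38.0 in CCL-1 cells. It had 40.8 and 38.4 in Dex cells and 51.3 and 37.2 in unstimulated cells. The 4 IL-9 arrays lay below the 4 arrays without a cytokine, by a small gap between 35.9 and 37.2. Their means were 32.1 ± 3.81 and 41.9 ± 6.42 (SD, n = 4 each), and the difference of -0.26 (95% interval -0.64 to 0.11, adjusted p = 0.712) did not pass. For CCL-1 the averaged difference was -0.28 (95% interval -0.70 to 0.14).

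**Figure D4:**
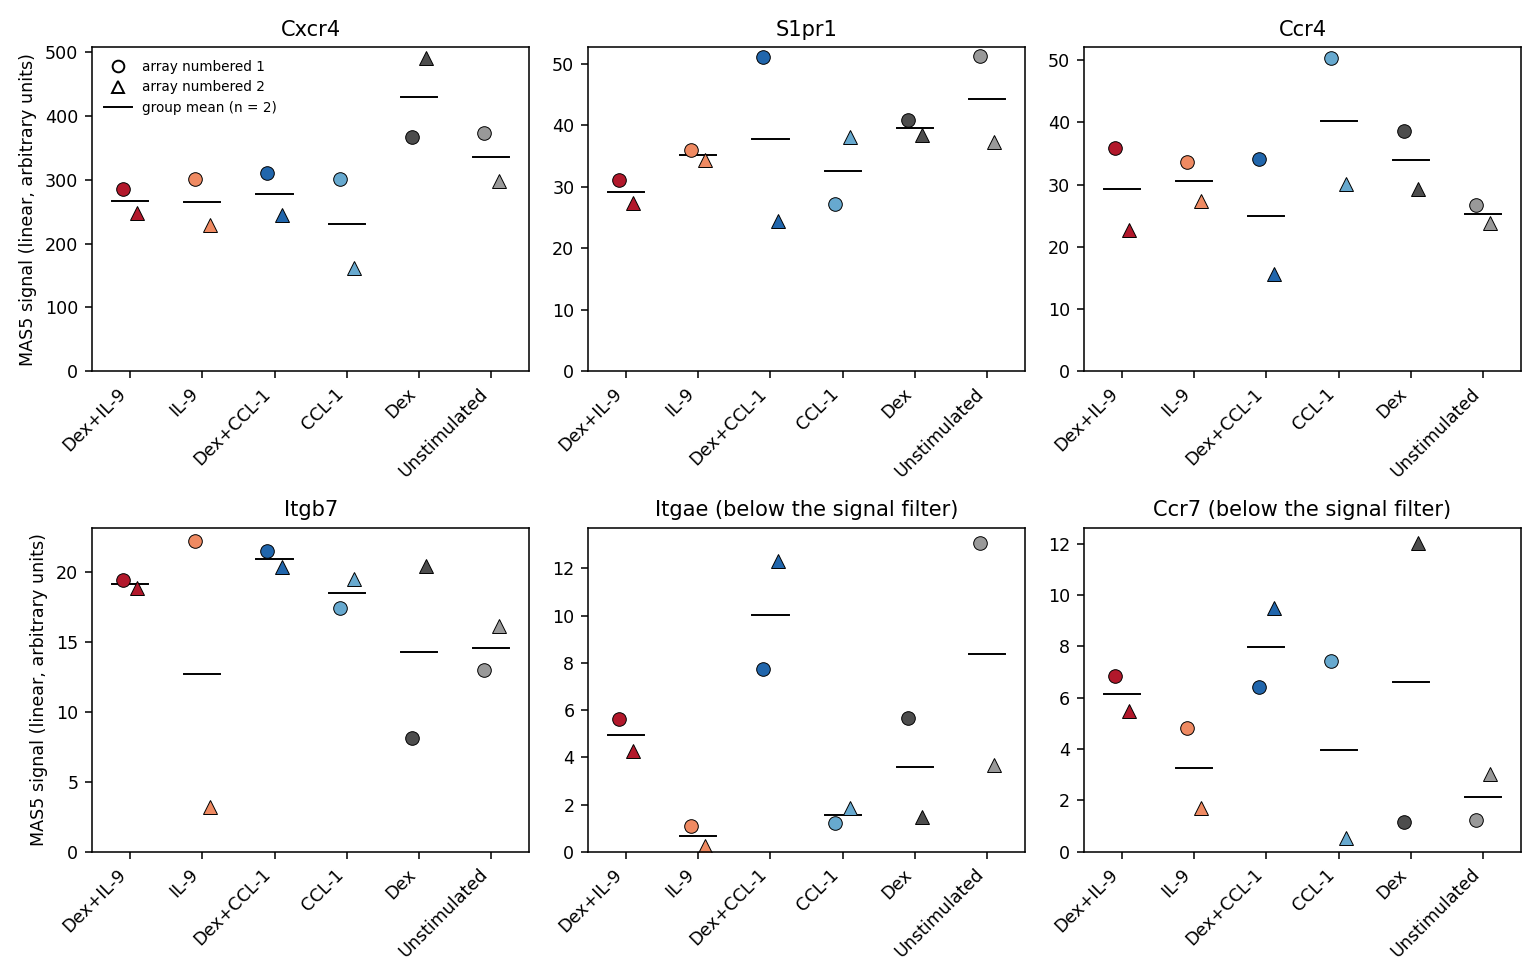
MAS5 signal of Cxcr4, S1pr1, Ccr4, Itgb7, Itgae and Ccr7 by group, drawn as for Ccr9. Each panel has its own axis from 0. Cxcr4 lies between 162.0 and 491.1, while Ccr7 and Itgae stay at 13.1 or below.

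Neither integrin chain gave a call. Itgb7, the beta chain of both gut and epithelial integrins, had 19.4 and 18.9 in Dex+IL-9 cells, 22.2 and 3.18 in IL-9 cells, 21.5 and 20.3 in Dex+CCL-1 cells and 17.5 and 19.5 in CCL-1 cells. It had 8.11 and 20.4 in Dex cells and 13.0 and 16.2 in unstimulated cells. Signals lay between 17.5 and 22.2 in 8 of 12 arrays, with IL-9 2 and Dex 1 the lowest, and IL-9 differed by 0.036 (95% interval -0.43 to 0.50) averaged over Dex conditions. Itgae, the alpha E chain, had 5.62 and 4.29 in Dex+IL-9 cells, 1.11 and 0.247 in IL-9 cells, 7.76 and 12.3 in Dex+CCL-1 cells and 1.23 and 1.87 in CCL-1 cells. It had 5.67 and 1.48 in Dex cells and 13.1 and 3.69 in unstimulated cells, and was below the filter. With no filter Itgae differed by -0.21 (adjusted p = 0.833) for IL-9 averaged over Dex conditions and was called in no comparison fitted there. Itga4, the chain that joins beta 7 in the gut-homing integrin, reached at most 7.63 and was below the filter too. It is given for that pairing, outside the rule for named genes.

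Over the 12 arrays the members varied unequally. The SD of log2(signal + 16) was 0.89 for Ccr9 1427419_x_at, above that of 99.9% of tested probe sets, and 0.65 and 0.49 for its other probe sets (99.6% and 97.8%). It was 0.38 for Cxcr4 (93.2%), 0.30 for Itgb7 (81.8%), 0.27 for Ccr4 (75.0%) and 0.23 for S1pr1 (60.8%). As a description over 12 arrays that share their groups and scaling, the Ccr9 probe sets correlated with each other at Pearson r of 0.954, 0.896 and 0.781. Cxcr4 correlated with Ccr9 1427419_x_at at 0.052.

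Other genes of the trafficking machinery were taken as lists. For IL-9 averaged over Dex conditions, 0 of 6 measured receptors of the same class, 0 of 8 integrin chains and ligands, 0 of 7 selectin and adhesion glycoproteins, 0 of 29 signalling and migration genes and 0 of 17 egress and trafficking regulators were called by limma. At an unadjusted p under 0.05 there were 0, 2, 2, 4 and 1, in the same order, of 1164 among all 13575 probe sets. Their median differences were -0.159, 0.100, 0.031, -0.093 and -0.074, beside -0.018 for all 7507 genes. Differences were positive in 2 of 6, 5 of 8, 4 of 7, 6 of 29 and 4 of 17. The share over all genes is not given, so these counts are not read as a result. The centred mean log2 level of the 29 signalling and migration genes was -0.132 to -0.107 in the 4 IL-9 arrays. It was -0.036 to 0.139 in the 8 other arrays, while the other lists overlapped. How often other gene lists of that size split this way was not counted, so this split is not read as a result either. CCL-1 averaged over Dex conditions and IL-9 against CCL-1 called 0 of each list as well, with 1, 2, 1, 3 and 0 genes for CCL-1 and 2, 1, 1, 7 and 1 for IL-9 against CCL-1 at an unadjusted p under 0.05. Over all probe sets these numbered 760 and 627. The 2 receptors counted for IL-9 against CCL-1 were Ccr8 (-1.37, adjusted p = 0.312) and Cxcr6 (-0.57, adjusted p = 0.652). Both were lower with IL-9, as Ccr9 was, while Cxcr3 had 0.23. Of the 6 receptors, Cx3cr1, S1pr4 and Ccr6 had mean signals of 6.93, 7.86 and 9.45, close to the filter at 6.32, so a fall could hardly show there.

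Ccr8, the receptor for CCL-1, differed between the array numbers, as did Cd44, a hyaluronan receptor. Ccr8 had signals of 298 and 271 in Dex+IL-9 cells and 306 and 86.9 in IL-9 cells, 553 and 623 in Dex+CCL-1 cells and 590 and 243 in CCL-1 cells. It had 400 and 456 in Dex cells and 405 and 159 in unstimulated cells. The low array of each group without Dex was the one numbered 2. In arrays numbered 2 Ccr8 rose with Dex by 1.48 (SE 0.13, adjusted p = 0.000159), and it was higher in arrays numbered 1 than 2 without Dex by 1.46 (adjusted p = 0.000128). Ccr9 by 1427419_x_at had -0.21 (95% interval -0.67 to 0.25, adjusted p = 0.834) in that last comparison. The Ccr8 differences for IL-9 (-0.57, adjusted p = 0.656) and CCL-1 (0.80, adjusted p = 0.885), averaged over Dex conditions, did not pass.

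Further list members are given by their averaged IL-9 difference. Cxcr6, the receptor for CXCL16, differed by -0.36 (adjusted p = 0.597) at a mean signal of 72.4, and Cxcr3 by 0.034 (adjusted p = 0.977) at 15.8. Ccl25, the ligand of CCR9, had a mean signal of 28.1 and differed by -0.13 (adjusted p = 0.871). Itgb1, the beta 1 chain, differed by 0.42 (adjusted p = 0.290) and Icam2, a ligand of the integrin LFA-1, by -0.32 (adjusted p = 0.486). Itgb2, the LFA-1 beta chain, differed by -0.016 (adjusted p = 0.982) for IL-9 and by 0.43 (adjusted p = 0.496) for CCL-1. Cd44 differed by 0.26 (adjusted p = 0.728) and was lower in arrays numbered 1 than 2 without Dex (-0.66, adjusted p = 0.0426), a call kept in 3 of 11 fits that each left out 1 array (adjusted p = 0.00828 to 0.371). Rac1 (-0.088), Rap1b (0.13), Gnai3 (-0.049) and Rap1a (0.30), small or heterotrimeric G proteins of the migration pathway, had mean signals of 989 to 1543 and did not pass. The Rap1a value rests on Dex 2, which had a signal of 458 against 871 to 1156 in the other 11 arrays: without Dex 2 the difference was 0.0082. Tgfbr2, a TGF-beta receptor, differed by -0.11 and Tcf12, an E protein, by -0.029. The receptor genes Il9r (-0.32, adjusted p = 0.606) and Nr3c1, the glucocorticoid receptor (0.085, adjusted p = 0.961), did not pass either.

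Genes whose level followed or mirrored Ccr9 were named by their Pearson r with 1427419_x_at over the 12 arrays, among 7507 genes, as a description. Those most like it were Smad3, a TGF-beta signal transducer (0.895), Ralb, a small GTPase (0.894), Pdcl3 (0.887), Rab5c (0.883) and Rufy1 (0.879). Smad3 had mean signals of 42.2 in the 4 IL-9 arrays, 74.7 in the 4 CCL-1 arrays and 63.3 in the 4 arrays without a cytokine, and Ralb of 33.7, 97.5 and 74.2. Neither passed for IL-9 averaged over Dex conditions (-0.46, adjusted p = 0.331, and -0.85, adjusted p = 0.199).

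The genes most unlike Ccr9 were Gzma, which encodes granzyme A (-0.966), Zfp36, an mRNA decay factor (-0.959), Ptger4, a prostaglandin E receptor (-0.934), Bcl3, an atypical IkB protein (-0.931), and Ndrg3 (-0.929). Of these Bcl3 rose by 2.85 (adjusted p = 8.10e-06), Ndrg3 by 2.42 (adjusted p = 0.00401), Gzma by 1.99 (adjusted p = 4.98e-05) and Ptger4 by 0.82 (adjusted p = 0.00974) for IL-9 averaged over Dex conditions. Zfp36 differed by 0.76 (adjusted p = 0.145). These genes were picked over the same arrays in which Ccr9 is low with IL-9, so their rise is no separate support. Gzma had mean signals of 158 in the IL-9 arrays, 17.7 in the CCL-1 arrays and 27.7 in the arrays without a cytokine, where Ccr9 had 75.6, 323 and 259.

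**Figure D5:**
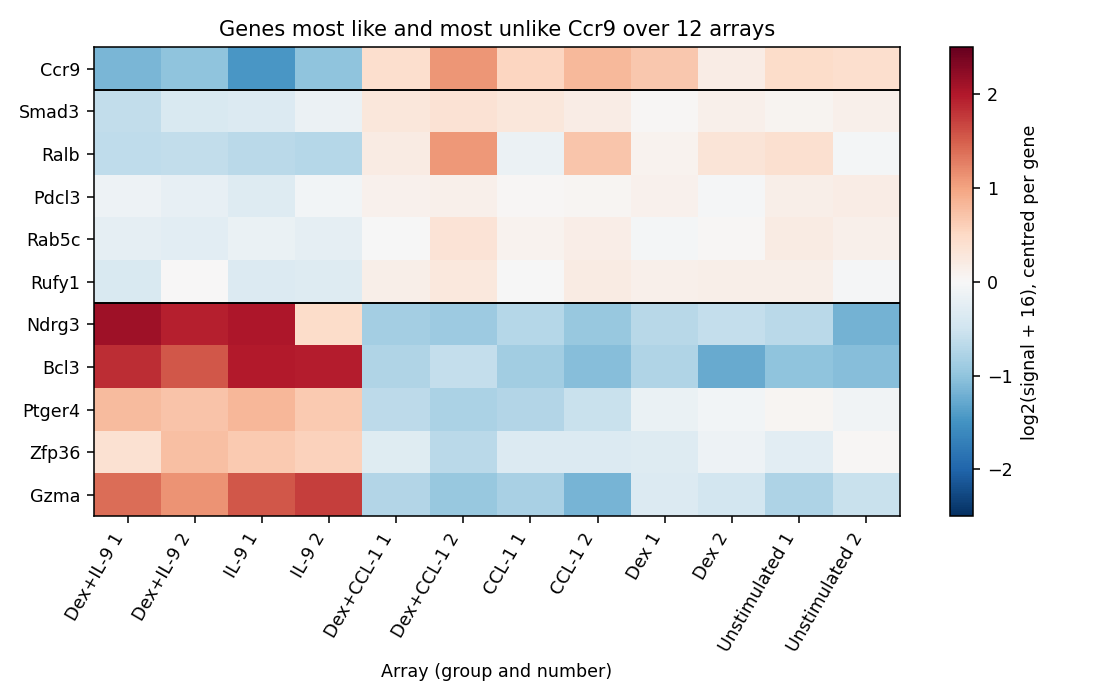
Log2(signal + 16) centred per gene over the 12 arrays, for Ccr9 (1427419_x_at, top row), the 5 genes most like it and the 5 most unlike it. Red is above and blue below the gene's mean. Ccr9 is below its mean in the 4 IL-9 arrays, where Gzma and Bcl3 are above theirs.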

How the data were processed

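The RNA of BW5147 cells was hybridised to 12 Affymetrix arrays, which the labels put in 6 groups of 2. The deposited values were MAS5 signal intensity values on a linear scale, per the submitters' processing notes, in 2 tables of 11 arrays and 1 array. The MAS5 version is not given in the sources used here. The mean after trimming 2% at each end was 100.04 to 100.05 in all arrays, so the deposited intensity values were scaled to a common mean, which would hide a shift that all genes shared. Of the value columns 0 were left without a sample.

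Without the 64 control probe sets there were 22626, and the platform annotation gave 1 symbol to 20380 of them, several to 691 and none to 1555. Signals were transformed as log2(signal + 16), and 13575 probe sets with a mean above the 40th percentile were kept. limma 3.58.1 in R 4.3.3 was fitted to the 11 arrays of the larger table with 1 mean per group, intensity-trended empirical Bayes moderation, and p-values adjusted by Benjamini-Hochberg across the kept probe sets, with 5 residual and 6.47 prior degrees of freedom. Dex within each replicate number was fitted with 4 means (Dex by number) and additive IL-9 and CCL-1 terms. There were 15 comparisons. The fit was tested on simulated data. Precision is limited by the number of arrays.

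The members, the gene lists and the comparisons were chosen with earlier results of these data known, and are no independent support. All member probe sets were named, as were list genes with a call, with at most 4 more from each list by mean level, and the 5 genes most and least correlated with Ccr9. Alternatives were pseudocounts of 1 and 64, no filter or 1 at the 60th percentile, median centring, quantile normalization, no intensity trend, a replicate block, CCL-1 2 added, 1 probe set per gene, each array left out, and, chosen after seeing the data, the arrays of 1 number alone. Promoter windows are those of RefSeq on GRCm38.p6. Array coordinates were not used, since the arrays name no build.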

Additional observations from a re-analysis of the deposited data

How the results depend on the processing

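Over 2094 recomputed member values, 1965 kept their direction and their side of the threshold or moved little, 7 lost a call, 8 gained one, 114 changed sign without a call (at most 0.404 in size), and 0 calls changed direction. For Ccr9 1427419_x_at, IL-9 against unstimulated passed with median centring (-1.62, adjusted p = 0.0462), with CCL-1 2 added (-1.67, adjusted p = 0.0497), with a single probe set for each gene (-1.67, adjusted p = 0.0415), and without Dex replicate 1 or Dex replicate 2. Over the omitted arrays its value ran from -1.89 to -1.44, and that of Dex+IL-9 against Dex from -1.76 to -1.25. In that second comparison 1427419_x_at and 1421920_a_at passed only without Dex replicate 1. That fit leaves Dex 2, the array that stood apart for some genes, as the only Dex array. IL-9 averaged over Dex conditions did not pass in the arrays numbered 2 alone (-1.31), and CCL-1 averaged over Dex conditions was -0.0916 in the arrays numbered 1 alone, 0.663 in those numbered 2 alone and 0.0463 to 0.391 over the omitted arrays; the cause was not tested. With pseudocounts of 1 and 64, Ccr9 1421920_a_at had -1.56 and -0.488 for IL-9 averaged over Dex conditions and -2.17 and -0.786 for IL-9 against CCL-1. The number of probe sets called for IL-9 averaged over Dex conditions was 13, against 2 in the arrays numbered 2 alone, 210 in those numbered 1 alone, 111 with Dex split by number, 18 with the replicate block and 5 to 358 over the omitted arrays, highest without Dex replicate 1. For IL-9 against CCL-1 it was 32, against 18 with no filter, 19 with a pseudocount of 1, 47 with CCL-1 2 added, 41 with the replicate block and 14 to 52 over the omitted arrays. The labels give same-numbered arrays only a number in common, but their values were not unrelated. Correlations of their deviations over 10 pairs of groups ran from -0.005 to 0.307. All were 0.076 or above except that of Dex+CCL-1 with IL-9, and Dex with Dex+CCL-1 was highest. The main fit held no term for the number. With the replicate block Ccr9 1427419_x_at had -1.59 (adjusted p = 0.00296) and 1421920_a_at -1.01 (adjusted p = 0.0246) for IL-9 averaged over Dex conditions. IL-9 against CCL-1 without CCL-1 replicate 1 had no CCL-1 array without Dex and was not run. Ccr7 and Itgae entered only the fit with no filter, which called neither.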
